A study of Homo sapiens with 2 samples.

Results

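The genes described here encode proteins of the small subunit processome and of the later steps that turn its product into the 40S ribosomal subunit. Probe sets were taken where the platform's annotation gave them 1 gene symbol and that symbol was 1 of 38 listed genes. All 38 had such a probe set, 79 probe sets in all, out of 19775 genes with a probe set of their own on the array. The signals come from EOL-1, a line of human eosinophilic leukaemia cells in which the FIP1L1-PDGFRA fusion kinase is expressed. One culture received 100 nM Glivec for 4 h, and the other was left untreated. Glivec is imatinib, which blocks the tyrosine kinases ABL, KIT and those of the PDGF receptors. Both cultures were grown in RPMI medium with serum, and RNA from each was hybridised to 1 Affymetrix array. With 1 array per group there is no replicate check, and no test or p-value is given. Both groups are the same line, so neither shows how other cells with the fusion behave.

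The small subunit processome is a large particle that forms on the nascent ribosomal RNA precursor in the nucleolus. It folds the precursor together with the U3 small nucleolar RNA and allows the cleavages that free the 18S rRNA. Its UTP-A and UTP-B subcomplexes, the MPP10 complex, UTP-C and the GTPase BMS1 join in order. A smaller set of factors then stays with the pre-40S particle, which is exported and finished in the cytoplasm. Ribosome assembly genes are known targets of MYC, which binds DNA with its partner MAX at the E-box sequence.

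Signals are MAS5 values on a linear scale, scaled by the authors to the same trimmed mean of 100.0 on both arrays. Signals below 13.7, the median of all signals on both arrays, were raised to that floor before log2 was taken, and a gene was measured where at least 1 array lay above it. Each gene was represented by its brightest probe set without a cross-hybridisation suffix, or with it where the gene had no other. Each log2 ratio is Glivec over untreated. The share of probe sets above the floor was 51.4% with Glivec and 48.6% without. The 18 hybridisation spike-in probe sets had log2 ratios of 0.42 to 0.89, so every ratio is relative to the bulk of genes, whose median was 0.10. The 3' to 5' signal ratio of GAPDH was 1.04 with Glivec and 0.925 without, and that of ACTB was 1.23 with Glivec and 1.17 without. Of 10 myeloid and eosinophil markers with a probe set, 8 were above the floor on an array, 5 of them higher with Glivec and 3 lower, and all 10 had a summed signal of 10536 with Glivec and 8494 without. PRG2 (6302 with Glivec, 4744 without) and RNASE2 (2872 with Glivec, 2146 without), both eosinophil granule proteins, made up most of that sum. The transcription factor GATA2 (94.4 with Glivec, 208 without) was past 2-fold lower and the cytokine receptor chain CSF2RB (391 with Glivec, 693 without) was lower too, whereas IL5RA and GATA1 were at the floor on both arrays. Of 13 markers of T and NK cells, B cells, erythroid cells, fibroblasts and epithelium with a probe set, CD3E, CD79A, HBB and KRT18 were above it on an array, the brightest being CD79A (94.9 with Glivec, 60.03 without). Their part in the results was not tested.

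All 38 genes were above the floor on both arrays, and 37 of them had a lower signal with Glivec. Their signals lay between 29.5 and 823 on the Glivec array (median 225) and between 86.6 and 1246 on the untreated array (median 414). The median log2 ratio was -0.59, with quartiles of -1.01 and -0.39, beside a median of 0.10 over 12705 measured genes. Of all measured genes, 41% had a ratio below 0. Fewer cells of a kind and less RNA per cell cannot be told apart in such bulk RNA. A ratio at least 2-fold lower was found for 10 of the 38 genes, against 2.63% of all measured genes, and a ratio at least 2-fold higher for 0 of them, against 3.13%. With a threshold of 1.5-fold, 19 of the 38 were lower, against 8.33% of all measured genes, and with 3-fold 3 were, against 0.677%. Genes of like signal gave a similar background. Among the 6673 measured genes whose mean signal over both arrays lay within the range of the 38, from 76.0 to 1034, 3.28% were at least 2-fold lower and the median was 0.05. Ranked by ratio, 13 of the 38 were in the lowest 5% of measured genes, 22 in the lowest 10%, and all 38 were below the median. The 38 genes were chosen with earlier results of these data known, so these contrasts with all measured genes are not independent evidence.

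**Figure D1:**
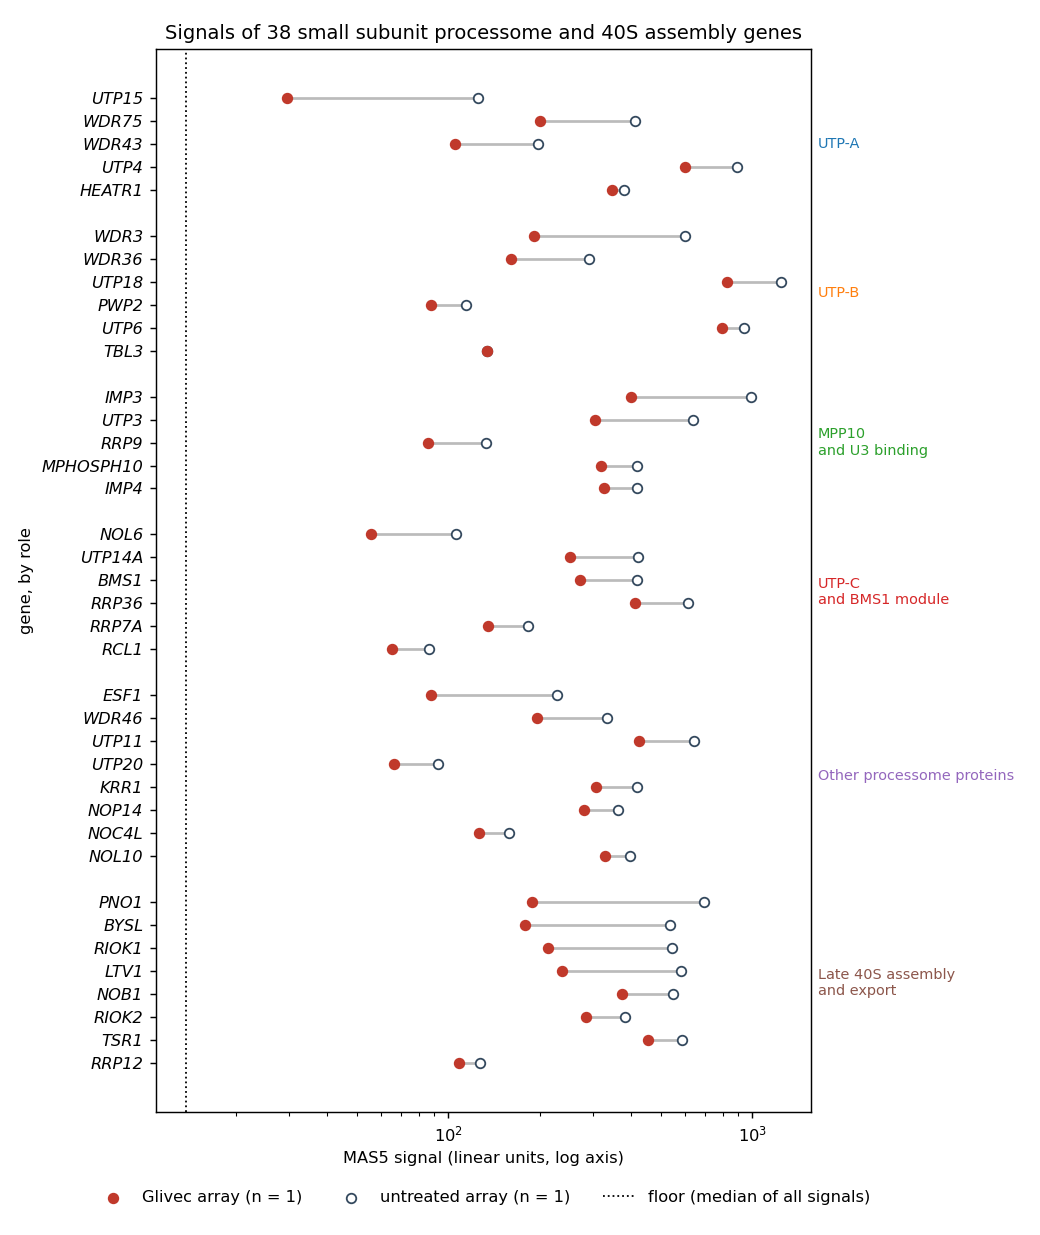
Signals of the 38 genes on the Glivec array (filled) and the untreated array (open), 1 array each, on a log axis and grouped by role; the dotted line is the floor of 13.7. The filled point lies left of the open one for 37 genes, and for TBL3 the points coincide.

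The only error these arrays give is how far probe sets of the same gene disagree, and it does not cover differences from culture to culture. Pooled over 5603 genes, the SD of log2 ratios within a gene was 0.33, and over the 18 of the 38 with more than 1 usable probe set it was 0.37. Of 79 probe sets, 64 were above the floor on both arrays, and 61 of these were lower with Glivec. The 3 higher ones belonged to PWP2, RRP12 and TBL3. Another 4 were above the floor on the untreated array alone, 0 on the Glivec array alone, and 11 on neither. In 16 of the 18 genes with several usable probe sets all of them were lower. The other 20 genes rest on 1 probe set, and they include 7 of the 10 that were at least 2-fold lower.

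**Figure D2:**
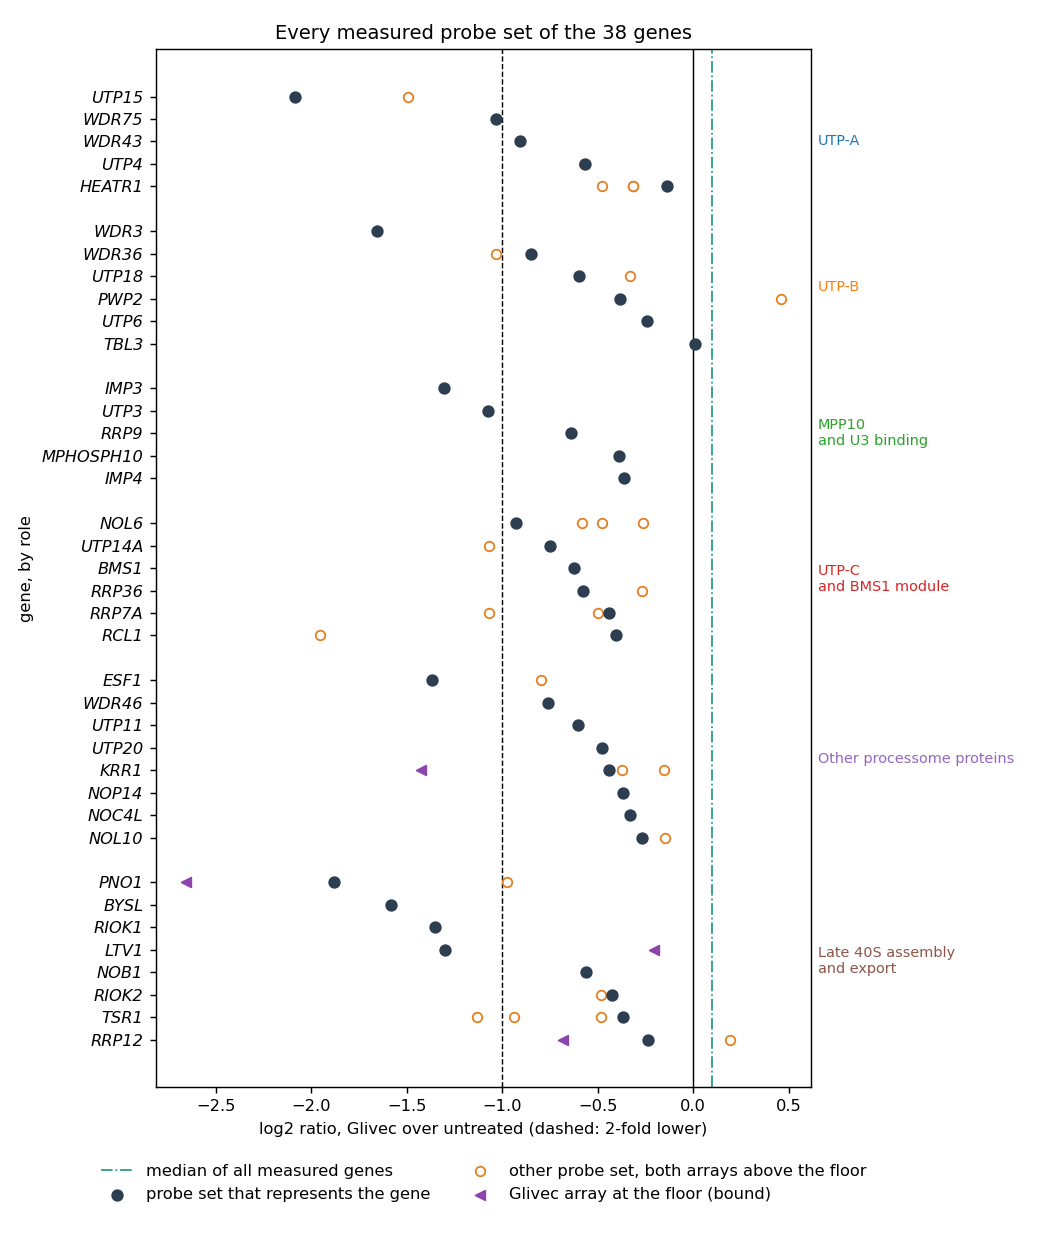
Log2 ratio, Glivec over untreated, of each probe set above the floor on an array, by gene and role. Filled points represent the gene, open points are its other probe sets, triangles are bounds with the Glivec array at the floor, the dashed line marks 2-fold lower and the dash-dotted line the median of all measured genes (0.10). Of 64 probe sets above the floor on both arrays, 61 lie left of 0.

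Promoter sequence was a feature that the choice of genes did not use. The RefSeq promoter windows (GRCh38.p14, 250 bases before to 50 bases after a gene's start) held 35 of the 38 genes in 36 windows. RRP12, NOL10 and MPHOSPH10 have no window in that table. The E-box CACGTG, the same on both strands, was present in 16 of the 35 genes (45.7%). It was present in 12.5% of 10236 measured genes and in 8.77% of all 27305 genes in the table. By window the shares were 44.4% for these genes and 7.26% over all 35116 windows. The shares were 34.8% for 23 other genes of 40S assembly and 34.9% for 43 genes of 60S assembly. They were 7.14% for 14 RNA polymerase I genes and 8% for 25 genes of 40S ribosomal proteins. The mean G and C content of the windows was 62.0% for these genes and 63.0% for measured genes.

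Of the 18 matches in the 16 genes, 15 began between 20 bases before and 50 bases after the gene's start (83.3%). Over all promoters 565 of 2821 matches did so (20.0%). That interval was not part of the plan, which covered only the share of promoters with the E-box. It was therefore not fixed in advance, and the contrast with all promoters was not tested. A match is a description of these letters and not a measured binding site. Of the 10 genes at least 2-fold lower, 4 carried it. They are shown with 12 bases on either side, the E-box in capitals and each line read 5′ to 3′ on the gene's strand, GRCh38.p14.
PNO1, first base at base 10 of the transcript, chr2:68157885-68157914, plus strand: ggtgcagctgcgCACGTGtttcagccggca
BYSL, first base at base 29 of the transcript, chr6:41921515-41921544, plus strand: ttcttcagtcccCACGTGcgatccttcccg
ESF1, first base at base 13 of the transcript, chr20:13784890-13784919, minus strand: gggtgtgagcccCACGTGaggcttggtagg
LTV1, first base at base 29 of the transcript, chr6:143843354-143843383, plus strand: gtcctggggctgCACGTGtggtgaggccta

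In PNO1 and ESF1 the E-box lies just inside the transcript. Their windows from 250 bases before to 30 bases after the start show it in context, again in capitals.
PNO1, chr2:68157638-68157917, plus strand: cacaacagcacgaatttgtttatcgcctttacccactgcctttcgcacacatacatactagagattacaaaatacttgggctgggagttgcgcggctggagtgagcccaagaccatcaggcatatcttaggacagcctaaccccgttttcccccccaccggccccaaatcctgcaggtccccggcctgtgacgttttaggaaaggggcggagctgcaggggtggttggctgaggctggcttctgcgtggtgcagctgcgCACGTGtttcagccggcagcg
ESF1, chr20:13784890-13785169, minus strand: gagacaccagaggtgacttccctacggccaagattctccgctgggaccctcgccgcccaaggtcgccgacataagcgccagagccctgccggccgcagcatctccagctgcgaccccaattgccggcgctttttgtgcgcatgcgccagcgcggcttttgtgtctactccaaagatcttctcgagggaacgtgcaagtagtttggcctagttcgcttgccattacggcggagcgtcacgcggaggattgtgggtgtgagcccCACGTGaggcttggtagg

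The other 12 genes with the E-box were between 1.29-fold and 1.90-fold lower. They are shown in the same way for the place of the match, and the flanks of WDR46 and UTP14A end where the window ends.
NOL6, first base at base 14 of the transcript, chr9:33473894-33473923, minus strand: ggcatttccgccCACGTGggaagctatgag
WDR43, first base at base 4 of the transcript, chr2:28894658-28894687, plus strand: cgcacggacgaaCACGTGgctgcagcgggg
WDR46, first base at base 42 of the transcript, chr6:33289190-33289210, minus strand: agaggagttttgCACGTGgat
UTP14A, first base 241 bases before the start, chrX:129905914-129905940, plus strand: accttgggcCACGTGgaaaccaggggc
RRP9, first base 5 bases before the start, chr3:51941892-51941921, minus strand: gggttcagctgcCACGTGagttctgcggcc
UTP18, first base 89 bases before the start, chr17:51260445-51260474, plus strand: gggagtgctggtCACGTGgcaagaggctgc
UTP18, first base at base 5 of the transcript, chr17:51260538-51260567, plus strand: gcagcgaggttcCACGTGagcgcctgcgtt
UTP4, first base 16 bases before the start, chr16:69132621-69132650, plus strand: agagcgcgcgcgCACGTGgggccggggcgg
UTP20, first base 10 bases before the start, chr12:101280083-101280112, plus strand: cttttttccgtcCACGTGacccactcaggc
RCL1, first base at base 5 of the transcript, chr9:4792936-4792965, plus strand: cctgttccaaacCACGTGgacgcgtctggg
PWP2, first base at base 2 of the transcript, chr21:44107388-44107417, plus strand: tgagctgcggcaCACGTGcgacggccgtga
NOP14, first base at base 16 of the transcript, chr4:2963374-2963403, minus strand: tccgcggcccggCACGTGtcttagggtagc
IMP4, first base 203 bases before the start, chr2:130342682-130342711, plus strand: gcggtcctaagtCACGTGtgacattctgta
IMP4, first base at base 16 of the transcript, chr2:130342900-130342929, plus strand: ttctcccggaccCACGTGgaagcggcactc

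Within the 35 genes, those with and without the E-box overlapped in ratio. The 16 that carry it had log2 ratios from -1.88 to -0.36, with a median of -0.69, and 4 of them were at least 2-fold lower. The 19 that lack it had log2 ratios from -2.09 to 0.01, with a median of -0.58, and 6 of them were at least 2-fold lower, among them UTP15, which had the lowest ratio of all 38. Over all measured genes with a window, the median was 0.02 for 1277 with the E-box and 0.10 for 8959 without, and 3.99% and 2.28% of them were at least 2-fold lower. MYC itself, by 1 probe set, had a signal of 557 with Glivec and 3781 without. Whether MYC had a part in these ratios was not tested.

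**Figure D3:**
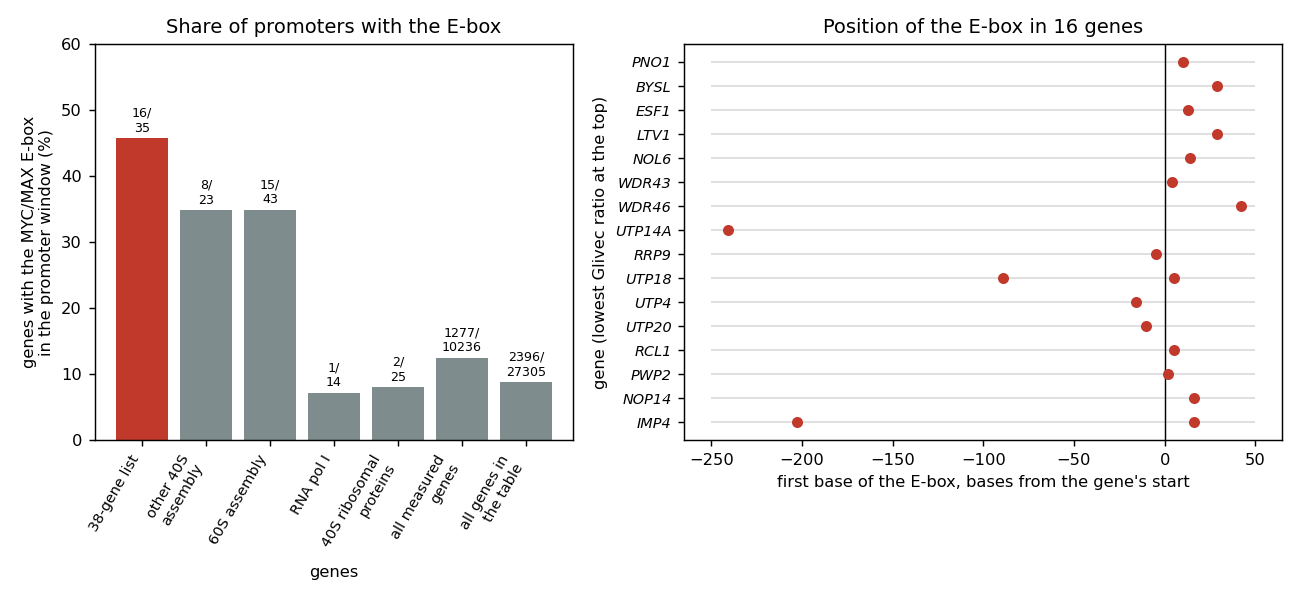
Left, percent of genes whose promoter window holds the E-box, by list, with the counts above each bar: 16 of 35 for the 38-gene list against 1277 of 10236 measured genes. Right, the first base of each match relative to the gene's start in the 16 genes, with the lowest log2 ratio at the top. Of the 18 matches, 15 lie between 20 bases before and 50 bases after the start, an interval not fixed in advance.

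UTP-A, the subcomplex that binds the precursor first and in human cells is linked to its transcription, was lower in 5 of 5 genes, and 2 of them were at least 2-fold lower, at a median of -0.91 for the log2 ratio. UTP15, a WD-repeat subunit, had a signal of 29.5 with Glivec and 125 without, a log2 ratio of -2.09 or 4.25-fold lower. Its second probe set had 29.0 with Glivec and 81.7 without, 2.81-fold lower. UTP15 was the dimmest of the 38 on the Glivec array, and no E-box lies in its window. With the floor at the 75th percentile its log2 ratio was -0.52, a bound because its Glivec signal lay below that floor. WDR75, another WD-repeat subunit, had 200.1 with Glivec and 410 without, 2.05-fold lower. HEATR1, the large HEAT-repeat scaffold, was the least different of the 5, with 345 with Glivec and 379 without (log2 ratio -0.14). Its 3 other probe sets above the floor were lower too, with log2 ratios of -0.48 to -0.31. WDR43 and UTP4 (also called cirhin) lay between, at -0.91 and -0.57.

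UTP-B, which contacts the 5' end of the precursor and the U3 RNA, spanned a wide range over 6 genes, with a median of -0.49. WDR3 had a signal of 191 with Glivec and 602 without, 3.16-fold lower, and was the only one of the 6 past 2-fold. TBL3 had 135 with Glivec and 134 without, a log2 ratio of 0.01, so that 2 WD-repeat subunits of the same complex stood at opposite ends. PWP2 had 87.8 with Glivec and 115 without by its brightest probe set (-0.38). A dimmer PWP2 probe set went the other way, with 49.4 with Glivec and 35.9 without (0.46). UTP6, UTP18 and WDR36 had log2 ratios from -0.85 to -0.24, and UTP18 was the brightest of the 38 genes on both arrays.

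The MPP10 complex and proteins at the U3 RNA were lower in 5 of 5 genes, with a median of -0.64. IMP3, which in yeast helps U3 pair with the precursor, had a signal of 399 with Glivec and 987 without, 2.47-fold lower. UTP3, the homologue of yeast Sas10, had 304 with Glivec and 640 without, 2.10-fold lower. IMP4, the partner of IMP3 in the same complex, had 325 with Glivec and 419 without, 1.29-fold lower. IMP4 carries 2 E-boxes and IMP3 none in its window. MPHOSPH10, the protein that holds IMP3 and IMP4, was at -0.39, close to IMP4, and RRP9, the U3-specific protein, was at -0.64.

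The UTP-C and BMS1 group was lower in 6 of 6 genes but none was past 2-fold, and the median was -0.60. NOL6, the human Utp22, had a signal of 55.7 with Glivec and 106 without, 1.90-fold lower. Its 3 other probe sets were less different, at -0.58 to -0.26. With the floor at the 75th percentile the log2 ratio of NOL6 was -0.28, a bound because its Glivec signal lay below that floor. RCL1, which BMS1 carries into the particle in yeast, had 65.5 with Glivec and 86.6 without by its brightest probe set (-0.40). Its second probe set had 24.0 with Glivec and 93.3 without (-1.96), the widest disagreement among the 38 genes between probe sets above the floor on both arrays. The GTPase BMS1, UTP14A, whose yeast counterpart activates an RNA helicase, RRP36 and RRP7A had log2 ratios from -0.75 to -0.44. BMS1, UTP14A and RRP7A have near-identical copies or pseudogenes in the genome, which these probe sets may not tell apart.

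The other processome proteins were lower in 8 of 8 genes, with a median of -0.46. ESF1 had a signal of 87.9 with Glivec and 227 without, 2.58-fold lower, and its second, cross-hybridising probe set was 1.74-fold lower. NOL10, the human Enp2, was the least different, with 328 with Glivec and 395 without (-0.27). The other 6 lay between -0.76 and -0.33. They were WDR46, UTP11, the HEAT-repeat protein UTP20, the KH-domain protein KRR1, and NOP14 with its partner NOC4L. A dim KRR1 probe set, at the floor with Glivec (8.31) and at 36.8 without, was at least 2.69-fold lower.

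Among the role groups, the late factors of 40S assembly and export held the most genes past 2-fold, 4 of 8. The count was 2 of 5 in both UTP-A and the MPP10 group, 10 of all 38, and 2.63% over all measured genes. The median of the late factors was -0.93, close to that of UTP-A (-0.91). BYSL, RIOK1 and LTV1 each rest on 1 probe set above the floor on both arrays. Differences between role groups were not tested. PNO1, a KH-domain partner of the nuclease NOB1, had a signal of 188 with Glivec and 693 without, 3.69-fold lower. A second, cross-hybridising PNO1 probe set was 1.97-fold lower. Another, at the floor with Glivec (12.6) and at 86.5 without, was at least 6.31-fold lower. BYSL, the human Enp1, had 179 with Glivec and 536 without, 2.997-fold lower. LTV1, which is shed from the pre-40S particle in the cytoplasm, had 236 with Glivec and 581 without, 2.46-fold lower. Its log2 ratio was -0.75 as the mean over its probe sets. That mean takes in a dim probe set, at the floor with Glivec (5.78) and at 15.8 without. The log2 ratio of that dim probe set, -0.21, is a bound. PNO1, BYSL and LTV1 all carry the E-box just after the gene's start, as printed for them. RIOK1, the other late gene past 2-fold, has none in its window. Over all role groups, 4 of 16 genes with the E-box and 6 of 19 without it were at least 2-fold lower.

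The RIO kinases, atypical kinases that act on the last pre-40S particles, had unlike ratios on these 2 arrays. RIOK1 had a signal of 213 with Glivec and 544 without, 2.55-fold lower. RIOK2 had 283 with Glivec and 380 without, 1.34-fold lower, and a second probe set at -0.48. RIOK3, which is not among the 38 genes, had 631 with Glivec and 429 without, a log2 ratio of 0.56, or -0.18 with spike-in scaling. NOB1, the nuclease that makes the 3' end of 18S rRNA, was at -0.56, and TSR1, a GTPase-like protein, at -0.37. RRP12, a HEAT-repeat protein needed for export in yeast, had 108 with Glivec and 127 without (-0.24). A cross-hybridising RRP12 probe set was higher (119 with Glivec, 104 without), and a dim one, at the floor with Glivec (8.89) and at 22.0 without, was at least 1.61-fold lower.

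In 6 genes under 2-fold by the representative probe set another probe set was past it, in KRR1 by the bound given above. They were picked out after their values were seen. Beside KRR1 and RCL1, TSR1 had a cross-hybridising probe set with 59.3 with Glivec and 130 without, a log2 ratio of -1.14. UTP14A had a cross-hybridising one with 23.1 with Glivec and 48.5 without, 2.10-fold lower. RRP7A had a probe set with 16.9 with Glivec and 35.5 without, also 2.10-fold lower. WDR36 had one with 62.2 with Glivec and 128 without, 2.05-fold lower. All 6 of these probe sets had a lower mean signal than the representative one.

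Other lists of ribosome synthesis genes, also chosen with earlier results of these data known, were set beside the 38. Other genes of 40S assembly, among them U3 proteins, helicases and RNA modification enzymes, had a median of -0.42, and 23 of the 27 measured were lower. In that list 1 gene was at least 2-fold lower, the U3 protein gene SNU13 (364 with Glivec, 739 without, 2.03-fold), and RIOK3 was the highest. Genes of 60S assembly were lower in 39 of 46 measured, with a median of -0.60 and 14 at least 2-fold lower, from NIP7 (134 with Glivec, 538 without) to PELP1 (108 with Glivec, 66.9 without). RNA polymerase I genes were lower in 11 of 15, with a median of -0.39 and 4 at least 2-fold lower, from POLR1C (172 with Glivec, 587 without) to TTF1 (223 with Glivec, 186 without). PELP1 and TTF1 had log2 ratios of 0.69 and 0.26, or -0.05 and -0.48 with spike-in scaling. With 1 array per group the difference between these lists and the 38 genes was not tested.

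Genes of the structural proteins of the same subunit lay on the other side of 0 as reported, but not under every scaling. Of 32 genes of 40S ribosomal proteins, 21 had a probe set of their own. All 21 had a higher signal with Glivec, with log2 ratios from 0.39 (RPS4X) to 0.77 (RPS18) and a median of 0.53, but that median was 0.15 after lowess, 0 with quantile normalization, -0.20 with spike-in scaling and 0.03 over the genes that have a plain _at probe set. These are among the brightest genes on the arrays, with a median signal of 10346 with Glivec and 7293 without. The median of the 38 assembly genes was below that of the ribosomal protein genes under every scaling tried.

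**Figure D4:**
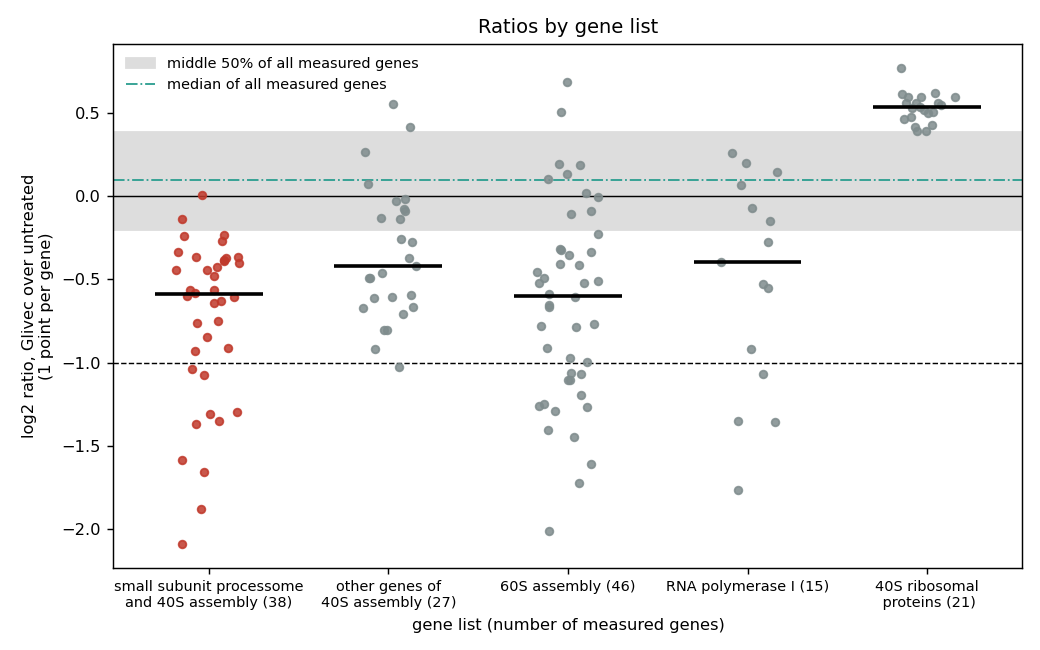
Log2 ratio, Glivec over untreated, of each measured gene in 5 lists, with the list's median as a bar. The grey band spans the quartiles of all 12705 measured genes and the dashed line marks 2-fold lower. The medians are -0.59 for the 38 genes, -0.42, -0.60 and -0.39 for the other assembly and polymerase lists, and 0.53 for 40S ribosomal proteins.

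The scaling between the arrays sets where 0 lies. With quantile normalization, median centring and removal of a lowess trend on signal, all 38 were below 0 and 11 or 12 were at least 2-fold lower. Scaling to the spike-ins put the median of all genes at -0.60 and that of the 38 at -1.33. The median of the 38 minus that of all measured genes was -0.72 to -0.60 on the log2 scale under these scalings and -0.69 as reported.

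**Figure D5:**
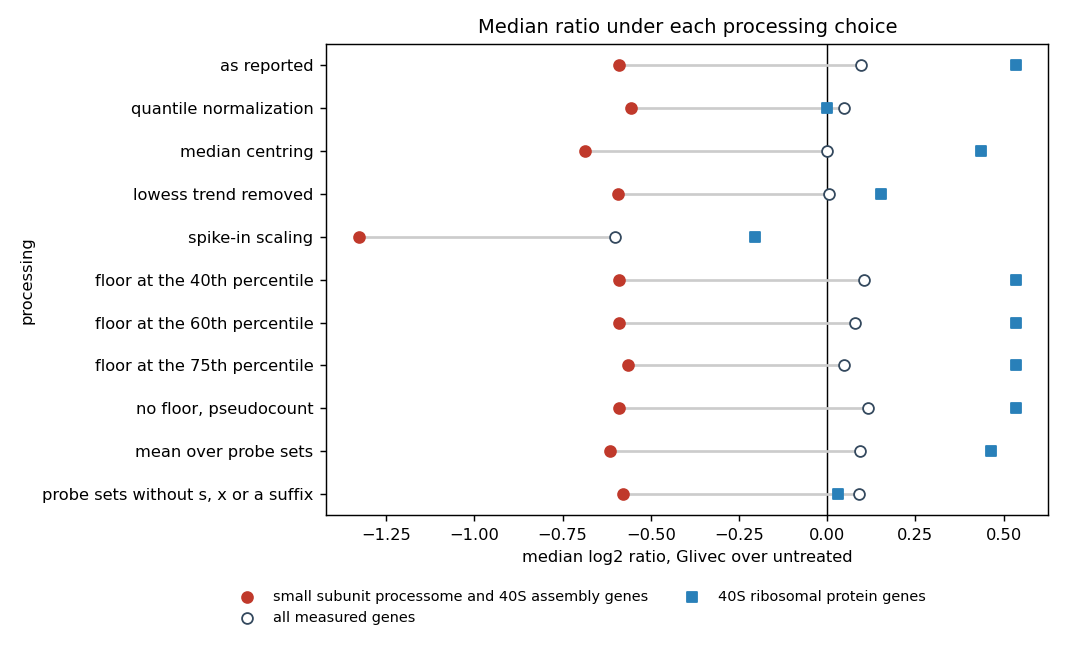
Median log2 ratio, Glivec over untreated, under each processing choice, for the 38 genes (filled circles), all measured genes (open circles) and 40S ribosomal protein genes (squares). The filled circle stays left of the open one in all 11 rows, whereas the squares lie at 0.53 as reported, at 0 for quantile normalization and at -0.20 for spike-in scaling.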

How the data were processed

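The deposited intensities are linear MAS5 signals, 1 per probe set and array, per the submitters' processing notes; no version is stated in the labels. The equal trimmed means show that the authors had scaled them. Probe sets were named from the platform annotation (41091 with 1 symbol, 1801 with several), and 4 of the latter, which name a gene of the list, were left out. No genome build goes with the signals. Counts used a 2-fold difference. Values were given for each gene past it, for genes whose probe sets disagreed in sign, and for the lowest and highest gene of each role group and list. The genes and lists were chosen with earlier results of these data known. Calculations used Python 3.11.15, numpy 2.4.6, pandas 2.3.3, statsmodels 0.14.6 and matplotlib 3.10.9 and were tested on simulated signals. Alternatives were other scalings (quantile, median centring, lowess with a span of 0.3, spike-ins), a floor placed at percentile 40, 60 or 75, a pseudocount of 0.37 in place of the floor, averaging a gene's probe sets, leaving out probe sets with s, x or a in the suffix, and a threshold of 1.5-fold or 3-fold. Precision is limited by there being 1 array for each group.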

Additional observations from a re-analysis of the deposited data

How the results depend on the processing

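No paired analysis was possible because there is a single array for either group, and for the same reason no replicate could be left out. As reported, 10 of 38 genes were at least 2-fold lower. That count was 34 with spike-in scaling (19.5% of all genes), 6 of 28 genes with only _at probe sets (2.65%), 19 with a 1.5-fold threshold (8.33% of all genes) and 3 with a 3-fold threshold (0.677%). Under the other settings it was 9 to 12. The median of the 38 was -1.33 with spike-in scaling and otherwise between -0.69 and -0.56. Of the 38, 0 were past the threshold upwards under any setting. The 10 genes were below 0 under each setting that gave a value (with only _at probe sets WDR3, IMP3, RIOK1 and ESF1 had none), and apart from the 3-fold threshold 8 of the 10 stayed past it; UTP15 was at -0.52 with the floor at the 75th percentile and LTV1 at -0.75 with the mean over probe sets. The floor limits UTP15 because its Glivec signal is dim, and the mean for LTV1 because its second probe set is at the floor with Glivec. Apart from spike-in scaling, which moved all 38, these other genes moved by more than 0.325, the pooled SD among probe sets sharing a gene. With the floor at the 75th percentile NOL6 was at -0.28 and UTP20 at -0.09. Both are bounds, since their Glivec signals (55.7 and 66.5) lay below that floor. With the mean over probe sets NOL6 was at -0.56, PWP2 at 0.04, RCL1 at -1.18 and TSR1 at -0.73. With only _at probe sets NOL6 was at -0.58, RRP12 at -0.68 and PNO1 at -2.66, those of RRP12 and PNO1 being bounds. Of all measured genes, the shares at least 2-fold lower and higher were 3.12% and 2.29% with quantile normalization, 3.53% and 2.14% with centring, 3.74% and 1.63% after lowess, 19.5% and 0.221% with spike-in scaling, 9.92% and 12.9% with a pseudocount for the floor, 2.15% and 2.39% when probe sets were averaged, 2.65% and 3.20% with only _at probe sets, and 3.07% and 4.92%, 2.64% and 2.24%, and 2.27% and 1.17% for floors at percentiles 40, 60 and 75 in that order.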

Other observations

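On the array, 4 probe sets name a gene of the list together with another gene and enter no comparison. The probe set shared by UTP14A, its retrogene copy UTP14C and ALG11 had a signal of 195 with Glivec and 310 without. Those shared by RRP7A and the pseudogene RRP7BP had 61.2 with Glivec and 54.4 without, and 42.2 with Glivec and 60.7 without. The probe set shared by UTP4 and HAS3 was at the floor on both arrays.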
